A study of Mus musculus with 6 samples.

Results

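The genes described here are 10 imprinted genes of the mouse, *H19*, *Meg3*, *Rian*, *Dlk1*, *Peg3*, *Mest*, *Plagl1*, *Grb10*, *Ndn* and *Snrpn*, out of 22907 genes named on the array. They were a preset list of imprinted genes outside the insulin-like growth factor axis, and their 19 probes were found through the RefSeq accession printed for each probe. RNA was compared between 3 WT samples (SV40-immortalized OS3 glial cells carrying the empty pcDNA3.1(+) vector) and 3 IG27 samples (OS3 cells transfected with the same vector holding *H3f3a* with the K27M mutation). OS3 is a cell line from the brain of a newborn male C3H/HeN mouse. Both groups went through transfection and drug selection, share the SV40 immortalization, and were kept for 2 days in MEM-α with fetal bovine serum, insulin and glucose. Each sample is 1 dish, so the p-values measure the spread between dishes. The sources used here do not say how many clones the dishes came from, so the K27M transgene and differences between drug-selected lines cannot be told apart.

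An imprinted gene is transcribed mainly from the copy inherited from 1 parent, because DNA methylation laid down in the egg or sperm marks the parental copies differently at an imprinting control region. Such genes lie in domains that share a control region, and many of them act on growth or are transcribed in the developing brain. In some imprinted domains silencing also involves trimethylation of lysine 27 of histone H3, the residue that the K27M mutation replaces. The array reads total RNA of both copies, so the parental copy that gave a signal was not measured here.

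The 6 arrays were single-color Agilent arrays on 1 slide. On the 5 arrays with complete scanner output no spot was saturated, and 58.82% to 61.18% of 56605 probes were well above background, which is a flag that the scanner software sets for each spot. IG27 replicate 2 has processed values but no such flags. Values below are log2 of the processed intensity minus the 75th percentile of the array ("normalized intensity"), so that 0 is the 75th percentile and 1 unit is a doubling. A gene was tested where a probe was well above background on every flagged array of at least 1 group, which left 14894 genes. Of these, 10503 (70.5%) were called at an adjusted p under 0.05 (limma with Benjamini-Hochberg adjustment), 30.6% as higher and 40% as lower in IG27 cells, and in 75.7% the groups did not overlap. The median difference of all tested genes was -0.07 and the median size of the difference was 0.46. *H3f3a* itself had a difference of -0.26 (adjusted p = 0.0235, limma), and the files do not say whether its probe reads the transfected plasmid. Glial markers went both ways. *Gfap*, *Sox2* and *Sox10* had differences of -1.07, -0.80 and -0.37, each called by limma. By contrast, *S100b*, *Pdgfra*, *Olig2*, *Olig1*, *Mbp* and *Sox9* had 4.93, 2.36, 1.51, 1.48, 0.92 and 0.71, also called. Each of these genes was well above background on every flagged array of both groups. Limma called 4 astrocyte and radial glia markers up and 5 down. For the oligodendrocyte lineage these counts were 4 and 3. *Gja1* was not well above background on any flagged array, and *Fabp7* and *Slc1a3* on no WT array.

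*H19* and *Mest* are host genes of microRNAs, and the mature sequences are shown because both hosts had a higher signal in IG27 cells. They are from RefSeq (GRCm38.p6), and capitals mark the seed, bases 2 to 8.
mmu-miR-675-5p (in *H19*, chr7:142577112-142577133, minus strand): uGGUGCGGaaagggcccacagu
mmu-miR-675-3p (in *H19*, chr7:142577078-142577099, minus strand): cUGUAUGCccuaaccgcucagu
mmu-miR-335-5p (in *Mest*, chr6:30741314-30741336, plus strand): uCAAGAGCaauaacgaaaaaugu
mmu-miR-335-3p (in *Mest*, chr6:30741354-30741375, plus strand): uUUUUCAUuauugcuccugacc
No seed is shared between the 4 sequences. The array has 0 probes named for either microRNA gene, so the values below are those of the host transcripts.

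The 250 bases upstream of an annotated start are shown for the 4 tested genes that have an entry in the promoter table. CpG dinucleotides, the sites that carry DNA methylation, are in capitals.
*Mest* (chr6:30737800-30738049, plus strand, the second of its 3 starts): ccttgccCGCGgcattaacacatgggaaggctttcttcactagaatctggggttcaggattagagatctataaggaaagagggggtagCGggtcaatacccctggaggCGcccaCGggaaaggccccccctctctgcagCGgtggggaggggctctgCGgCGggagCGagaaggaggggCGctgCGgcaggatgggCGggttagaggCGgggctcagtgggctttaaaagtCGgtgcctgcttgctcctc
*Plagl1* (chr10:13090582-13090831, plus strand): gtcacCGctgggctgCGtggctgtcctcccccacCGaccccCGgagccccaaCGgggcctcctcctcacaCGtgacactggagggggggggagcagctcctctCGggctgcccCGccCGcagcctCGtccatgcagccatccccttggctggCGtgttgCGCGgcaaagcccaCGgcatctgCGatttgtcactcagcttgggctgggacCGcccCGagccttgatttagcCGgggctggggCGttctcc
*Dlk1* (chr12:109452573-109452822, plus strand): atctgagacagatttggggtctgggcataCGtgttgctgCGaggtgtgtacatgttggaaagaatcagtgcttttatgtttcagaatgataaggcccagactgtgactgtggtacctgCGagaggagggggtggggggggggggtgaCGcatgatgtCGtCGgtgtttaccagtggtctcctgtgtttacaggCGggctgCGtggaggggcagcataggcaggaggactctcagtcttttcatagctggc
*Snrpn* (chr7:60450178-60450427, minus strand, the outermost of its starts): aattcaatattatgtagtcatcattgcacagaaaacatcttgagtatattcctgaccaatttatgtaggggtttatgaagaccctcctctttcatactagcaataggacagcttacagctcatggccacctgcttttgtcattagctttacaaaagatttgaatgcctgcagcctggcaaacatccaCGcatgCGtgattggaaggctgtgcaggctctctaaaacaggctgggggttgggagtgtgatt
These stretches hold 14 CpGs in *Mest*, 19 in *Plagl1*, 8 in *Dlk1* and 2 in *Snrpn*. The counts depend on the start, since the outermost start of *Mest* has 7 upstream and the starts of *Snrpn* have 2 to 4. Over the whole windows of 300 bases, which run 50 bases past the start, the 16 windows of 9 members held from 0 CpGs (*Rian*) to 45 (*Grb10*), against a median of 7 over all 32851 windows of the table. The *Grb10* window had more CpGs than 98.1% of all windows, and that of *Plagl1* (26 CpGs) more than 83.1%.

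Short motifs were searched in these windows on both strands. TGCCGC, the core bound by the imprint-protecting zinc finger protein ZFP57 when methylated, was in 6 of the 16 member windows (*Mest*, whose windows overlap, *Plagl1*, *Grb10*, *Meg3* and 1 start of *Snrpn*), and in 11.6% of all windows. GGGGCCCC, the motif of the zinc finger factor PLAGL1, was in 1 member window (*Peg3*) and in 1.08% of all. The insulator protein CTCF's longer core motif was in 0 member windows and in 0.0365% of all. A match is a match of letters only.

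Of the 10 members, 5 were tested (*H19*, *Dlk1*, *Mest*, *Plagl1* and *Snrpn*) and 5 were not (*Meg3*, *Rian*, *Peg3*, *Grb10* and *Ndn*). In the set of all named genes, 65% were tested. All 5 tested members were called by limma, where 70.5% of all tested genes were called. *H19*, *Dlk1* and *Mest* were higher and *Snrpn* was lower in IG27 cells, and *Plagl1* was lower by its brighter probe and higher by its other probe. *H19* and *Mest* entered the test only through their level in IG27 cells and *Snrpn* only through its level in WT cells, so these had to differ and the count is a description. Only *Dlk1* and *Plagl1* had a probe well above background in both groups. In this bulk RNA, fewer cells transcribing a gene and less RNA per cell cannot be told apart.

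**Figure D1:**
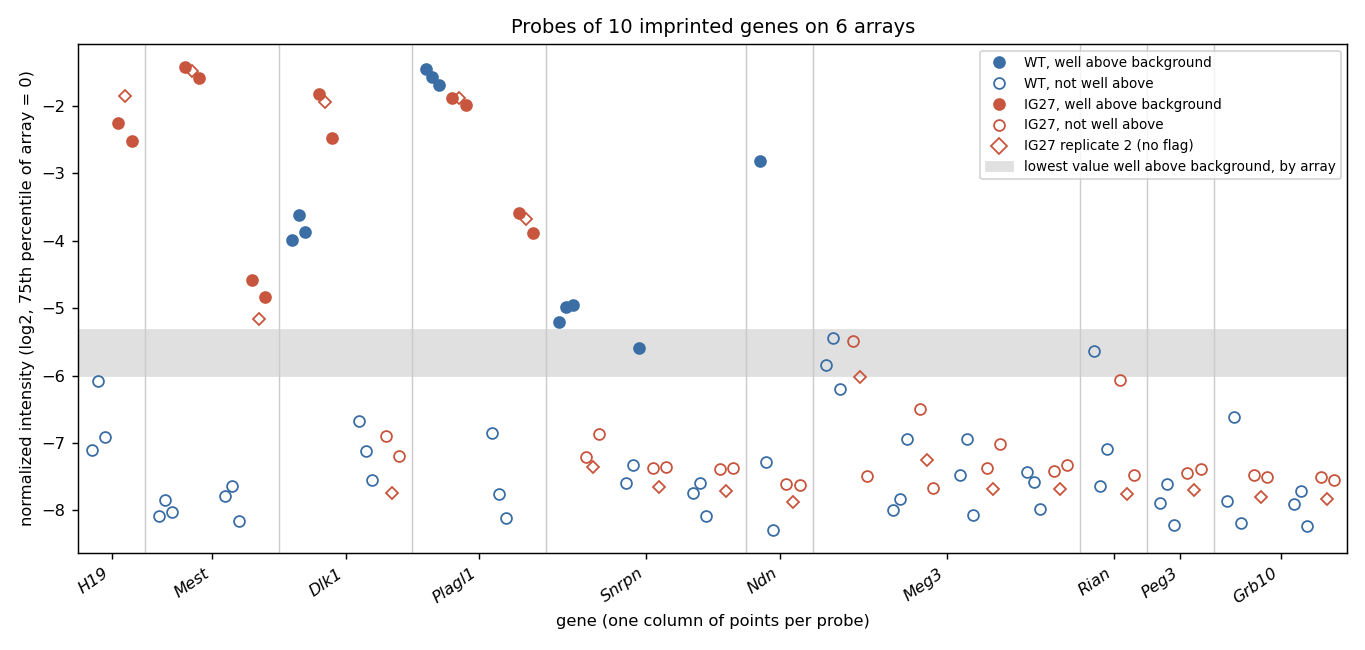
Normalized intensity (log2) of the 19 probes of the 10 imprinted genes on each of 6 arrays, with 1 column of points per probe. Filled points are well above background, open circles are not, diamonds are IG27 replicate 2, which has no flags, and the gray band spans the lowest values well above background on the arrays (-6.01 to -5.33). *H19*, *Mest*, the brighter probe of *Dlk1* and the dimmer probe of *Plagl1* are higher on all IG27 arrays, the *Snrpn* probe with 10 spots is lower, and *Ndn* has 1 high WT array.

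*H19* is a maternally expressed long noncoding RNA of distal chromosome 7, abundant in the embryo and mostly silenced after birth. The WT arrays gave its probe normalized intensities of -7.10, -6.08 and -6.91, and the IG27 arrays -2.25, -1.85 and -2.52 (in the order of the replicates, as for all values below). All IG27 arrays were above all WT arrays, and the probe was not well above background on any WT array. The measured difference was 4.49 on the log2 scale (standard error 0.30, adjusted p = 3.07e-05, limma), taken against a WT signal at background, so the bound is the more cautious value. This bound holds for the reported processing only. Set against the lowest value that was well above background on each WT array, *H19* was at least 11.8-fold higher in IG27 cells.

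*Meg3* and *Rian* are maternally expressed noncoding RNAs of the *Dlk1-Dio3* domain on chromosome 12. Neither had a probe well above background on any flagged array. The brightest of the 4 probes of *Meg3* had -5.84, -5.45 and -6.20 in WT and -5.49, -6.02 and -7.49 in IG27 cells, and the groups overlapped. The single probe of *Rian* had -5.64, -7.63 and -7.08 in WT and -6.07, -7.75 and -7.48 in IG27 cells, again with overlap. Without the filter on dim probes, their differences were -0.50 for *Meg3* (adjusted p = 0.483, limma) and -0.31 for *Rian* (adjusted p = 0.729, limma).

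*Dlk1*, the paternally expressed gene of the same domain, encodes a transmembrane relative of the Notch ligands that is found on progenitor cells. Its brighter probe was well above background on every flagged array and had -3.99, -3.61 and -3.88 in WT and -1.83, -1.94 and -2.47 in IG27 cells. Every IG27 array was above every WT array. The difference was 1.74 (95% confidence interval 1.28 to 2.21, standard error 0.19, adjusted p = 0.00028, limma), a 3.35-fold higher level in IG27 cells. The second probe of *Dlk1* ran from -7.74 to -6.67, was not well above background on any flagged array, and its groups overlapped. *Dlk1* was thus measured in both groups by 1 probe, while *Meg3* and *Rian* were not well above background on any flagged array. The domain also holds the noncoding RNA *Mirg*, which was not tested. Its probe was well above background on 2 of 3 WT and 1 of 2 flagged IG27 arrays, and its groups overlapped.

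*Mest* (also called *Peg1*) is a paternally expressed gene of chromosome 6 whose protein belongs to the alpha/beta hydrolase family. Its brighter probe had -8.08, -7.85 and -8.02 in WT and -1.43, -1.48 and -1.59 in IG27 cells. The measured difference was 6.48 on the log2 scale (standard error 0.08, adjusted p = 7.64e-08, limma). No WT array was well above background, and against that limit *Mest* was at least 19.3-fold higher in IG27 cells. The second probe of *Mest* had -7.79, -7.64 and -8.17 in WT and -4.58, -5.17 and -4.83 in IG27 cells, which gave a bound of at least 1.88-fold in the same direction. Its measured difference was 3.00 (adjusted p = 3.84e-05, limma over probes, where 64.2% of 34059 probes were called). The second probe of *Mest* also passed the filter only through its level in IG27 cells, so this call is a description.

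*Plagl1* (*Zac1*), paternally expressed from chromosome 10, encodes a zinc finger transcription factor known as an inhibitor of proliferation. Its 2 probes, both annotated to the same RefSeq transcript, differed in opposite directions. The brighter probe was well above background on every flagged array and had -1.46, -1.57 and -1.68 in WT and -1.88, -1.89 and -1.99 in IG27 cells. All IG27 arrays were below all WT arrays, by a small amount, with a difference of -0.35 (95% confidence interval -0.52 to -0.17, standard error 0.07, adjusted p = 0.00562, limma). The other probe had -6.85, -7.76 and -8.11 in WT and -3.59, -3.68 and -3.88 in IG27 cells. It was not well above background on any WT array and was at least 4.15-fold higher in IG27 cells (measured difference 3.86, adjusted p = 0.000104, limma over probes). This probe passed the filter only through its level in IG27 cells, so its call was largely fixed by the filter and is a description. The mean of both probes, which includes that dim probe, gave 1.76 (adjusted p = 0.000275, limma). The measured direction for *Plagl1* thus depends on the probe. Which transcripts each probe reads was not tested.

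*Peg3*, a paternally expressed zinc finger gene of proximal chromosome 7, and *Grb10*, an adaptor that damps insulin receptor signaling, were not well above background on any flagged array. *Peg3* ran from -8.21 to -7.61 in WT and from -7.70 to -7.39 in IG27 cells. The 2 probes of *Grb10* ran from -8.24 to -6.61 in WT and from -7.83 to -7.48 in IG27 cells. *Grb10* is known to be transcribed from the paternal copy in neurons and from the maternal copy in most other tissues. Without the filter, the differences were 0.39 for *Peg3* (adjusted p = 0.138, limma) and -0.04 for *Grb10* (adjusted p = 0.945, limma).

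*Ndn* (necdin, a MAGE family protein of neurons) and *Snrpn* are paternally expressed genes of the Prader-Willi region on chromosome 7. The single spot of *Ndn* was well above background on WT replicate 1 only, at -2.82, and lay at -7.29 and -8.29 in WT replicates 2 and 3 and at -7.60, -7.88 and -7.62 in IG27 cells. The high spot had a processed intensity of 152, against 3.16 to 6.66 on the other arrays, and carried no outlier flag. With 1 array of 3 high, *Ndn* was not tested, and its difference without the filter was -1.57 (adjusted p = 0.408, limma).

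*Snrpn* encodes the SmN protein of the spliceosome. The tested probe is printed in 10 spots per array and had -5.21, -4.98 and -4.96 in WT and -7.22, -7.35 and -6.87 in IG27 cells. All IG27 arrays were below all WT arrays, with a measured difference of -2.10 (standard error 0.14, adjusted p = 2.83e-05, limma). The probe was not well above background on either flagged IG27 array, and its WT level is close to that limit, so the bound was only at least 1.22-fold lower in IG27 cells. On IG27 replicate 1, the spots of this probe ran from 5.44 to 13.6 in processed intensity, apart from 1 spot of 174 that the scanner software flagged as an outlier and that was left out. Flagged spots of 64.5 on WT replicate 1 and of 191 on WT replicate 3 were left out in the same way. Of the other 2 probes of *Snrpn*, 1 was well above background on WT replicate 3 only (-5.60, against -7.66 to -7.33 on the other arrays), and the other on no flagged array (-8.08 to -7.37).

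**Figure D2:**
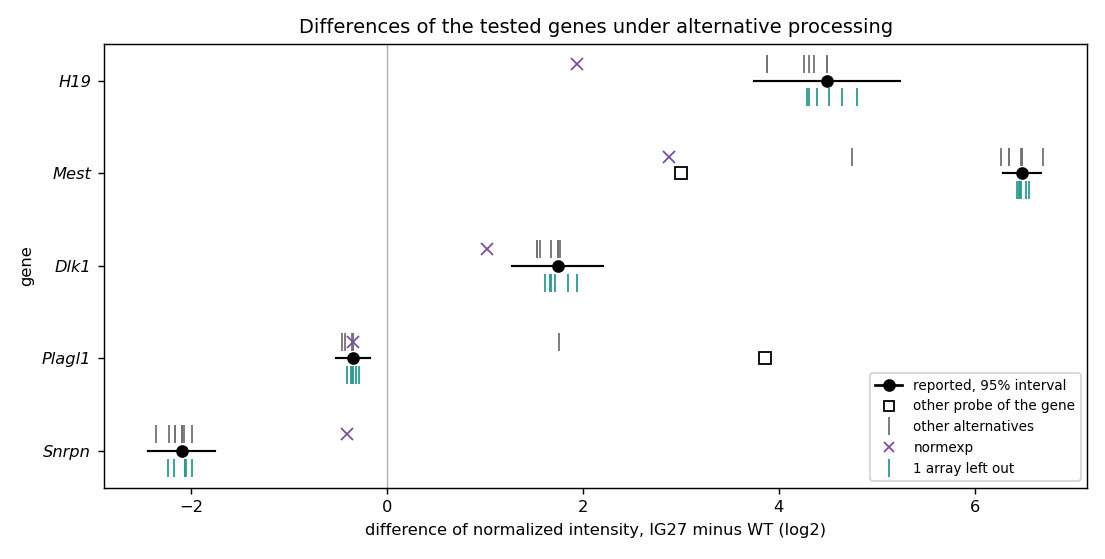
Difference of normalized intensity (IG27 minus WT, log2) of the 5 tested members. Black points with bars are the reported differences with 95% intervals from limma, squares are the other probe of *Mest* and *Plagl1*, gray marks are other processing alternatives, crosses are normexp background correction with an offset of 50, and green marks leave out 1 array each. The members other than *Plagl1* stay on 1 side of 0, and *Plagl1* lies on both.

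The differences of *H19*, *Mest*, *Dlk1* and *Snrpn* were smaller in an alternative that changed several choices together. These choices were normexp background correction, an added offset of 50, median in place of processed intensities and the 5 complete arrays. The differences there were 1.94 for *H19*, 2.88 for *Mest*, 1.03 for *Dlk1* and -0.41 for *Snrpn*. Each was smaller than the reported value by more than 1.5 times and each was still called by limma. The brighter probe of *Plagl1* gave -0.34 in this alternative, beside the reported -0.35. Those of *H19* and *Mest* lie below their bounds under the reported processing (3.57 and 4.27 on the log2 scale), so these bounds depend on the processing. Which of the several choices made the differences smaller was not tested, apart from the 5 complete arrays alone, which gave 6.48 for *Mest*. Within the slide row that holds WT replicate 2 and all IG27 arrays, the differences were 3.88 for *H19*, 6.35 for *Mest*, 1.53 for *Dlk1*, -0.35 for *Plagl1* and -2.16 for *Snrpn*.

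The domains around the members were measured unevenly. In the *Dlk1-Dio3* domain 2 of 7 genes, *Dlk1* and *Begain*, were well above background in both groups. *Mirg* was so on some flagged arrays of each group, and *Meg3*, *Rian*, *Rtl1* and *Dio3* on no flagged array. In the *Peg3* domain 1 of 5 genes on the array, the zinc finger gene *Zim3*, was well above background, at levels that overlapped between groups, and *Peg3*, *Usp29*, *Zim1* and the antisense transcript *Peg3os* were not. None of the 3 genes of the *Grb10* domain (*Grb10*, *Ddc*, *Cobl*) was well above background on any flagged array. On distal chromosome 7, 7 of 13 genes were well above background in both groups.

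Of 33 partners of the members in these domains, 30 were on the array and 18 were tested. Limma called 7 higher and 4 lower (61.1%, against 70.5% of all tested genes), with a median difference of -0.03. *Begain*, the tested gene next to *Dlk1*, which encodes a protein of synaptic junctions, had -4.74, -5.04 and -5.25 in WT and -1.92, -1.77 and -1.82 in IG27 cells. It was higher in IG27 cells by 3.17 (adjusted p = 3.95e-06, limma), and its groups did not overlap. On distal chromosome 7, the transporter gene *Slc22a18* was higher by 1.68 (adjusted p = 3.3e-05, limma) and the trophoblast transcription factor gene *Ascl2* by 1.54 (adjusted p = 6.62e-05, limma). *Ascl2* was well above background on 1 of 3 WT arrays, so its WT level lies at that limit. *Igf2*, which shares the control region of *H19* and is paternally expressed, had -4.66, -4.04 and -4.82 in WT and -4.42, -4.75 and -5.62 in IG27 cells. Its groups overlapped, with a difference of -0.43 and a 95% interval from -1.29 to 0.44 (adjusted p = 0.317, limma). For *H19* the measured difference was 4.49 and the bound 3.57. *Igf2* entered the test only through its level in WT cells. It was well above background on 1 of 2 flagged IG27 arrays, so its IG27 level lies at that limit.

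In the region of *Ndn* and *Snrpn* the tested genes went both ways. *Mkrn3*, a ubiquitin ligase gene that holds back puberty, had -2.06, -2.16 and -2.17 in WT and -4.26, -4.18 and -4.21 in IG27 cells, and fell by 2.09 (adjusted p = 6.06e-07, limma). *Peg12*, which encodes an inhibitor of GSK3, fell by 1.09 (adjusted p = 0.0177, limma). The flippase gene *Atp10a* was higher by 1.31 (adjusted p = 2e-06, limma). The ubiquitin ligase gene *Ube3a* had a difference of 0.19 (adjusted p = 0.272, limma). *Magel2*, a MAGE family relative of *Ndn*, had one of 0.01 (95% interval -0.75 to 0.77, adjusted p = 0.982, limma). It entered the test only through its level in IG27 cells and was well above background on 2 of 3 WT arrays. Its values ran from -5.67 to -4.65, close to that limit, so its difference is poorly measured.

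**Figure D3:**
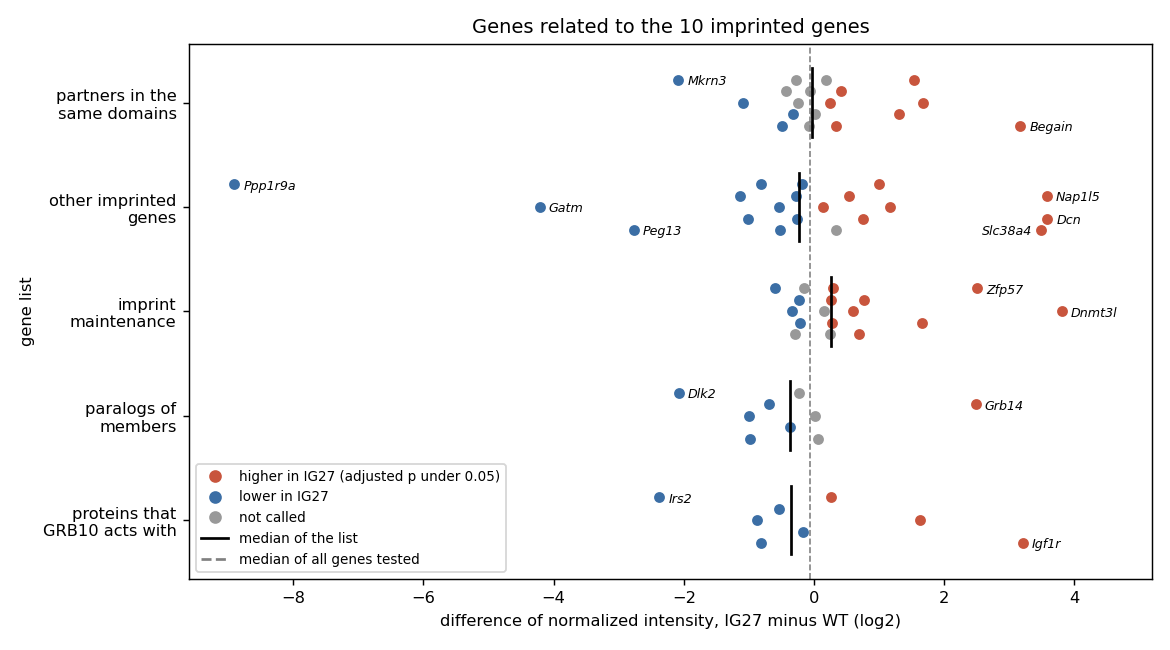
Difference of normalized intensity (IG27 minus WT, log2) of the tested genes in 5 lists related to the members. Points are genes, colored by the limma call, black bars are list medians and the dashed line is the median of all tested genes (-0.07). For genes below background in 1 group the measured difference is drawn. The genes of each list lie on both sides of 0.

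Of 27 other imprinted genes, 26 were on the array and 20 were tested, with 8 higher, 11 lower and 1 not called (95% called, against 70.5%) and a median difference of -0.22. *Ppp1r9a* and *Gatm* entered the test only through their level in WT cells, and *Dcn*, *Nap1l5* and *Slc38a4* only through IG27 cells. These had to differ, so the share called is a description. Whether the genes of this list are imprinted in this cell line was not measured. The actin-binding protein gene *Ppp1r9a* (neurabin) was at least 96.8-fold lower in IG27 cells, with 1.38, 1.11 and 1.27 in WT and -7.54, -7.83 and -7.58 in IG27 cells (adjusted p = 7.64e-08, limma). *Gatm*, an enzyme of creatine synthesis, was at least 5.43-fold lower, and the noncoding RNA *Peg13* fell by 2.77 (adjusted p = 5.94e-07, limma). *H13*, a signal peptide peptidase, fell by 1.14 (adjusted p = 5.96e-06, limma), and the Polycomb group gene *Sfmbt2* fell by 1.02 (adjusted p = 1.59e-05, limma). In the other direction, the proteoglycan gene *Dcn* was at least 3.32-fold, the nucleosome assembly gene *Nap1l5* at least 3.97-fold and the amino acid transporter gene *Slc38a4* at least 3.06-fold higher in IG27 cells. The antisense RNA *Airn* and *Igf2r*, the gene it overlaps, were both higher in IG27 cells, 2.24-fold and 2.01-fold (adjusted p = 1.03e-05 and 2.19e-05, limma).

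Of 19 genes that set, protect or remove imprints, 17 were tested, with 9 higher, 4 lower and 4 not called (76.5%, against 70.5%) and a median of 0.27. *Dnmt3l*, the cofactor that helps to lay down methylation imprints in germ cells, had -3.64, -3.91 and -3.70 in WT and 0.00, 0.12 and 0.04 in IG27 cells, a difference of 3.80 (adjusted p = 3.19e-07, limma). *Zfp57*, whose motif was searched above, had -4.50, -3.77 and -5.69 in WT and -1.88, -2.25 and -2.30 in IG27 cells, a difference of 2.51 (adjusted p = 0.00337, limma). *Tet1*, an enzyme that oxidizes methylated cytosine, was higher by 1.66 (adjusted p = 2.36e-05, limma). The maintenance methyltransferase gene *Dnmt1* differed by -0.22 and its partner *Uhrf1* by 0.29, with adjusted p of 0.0174 and 0.00183 (limma). *Ctcf*, the insulator protein that binds the *H19* control region, fell by 0.60 (adjusted p = 6.95e-05, limma).

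Of 10 paralogs of the members, 9 were tested, with 1 higher, 5 lower and 3 not called (66.7%, against 70.5%) and a median of -0.37. *Dlk2* moved opposite to *Dlk1*, with processed intensities of 2150, 2090 and 2090 in WT and 550, 565 and 449 in IG27 cells and a normalized difference of -2.08 (adjusted p = 1.06e-06, limma). *Plagl2* fell by 0.37 (adjusted p = 0.000757, limma) and *Plag1* was not well above background on any flagged array. Among the relatives of *Grb10*, *Grb14* was higher by 2.48 (adjusted p = 4.27e-05, limma) and *Grb7* had 0.06 (adjusted p = 0.543, limma). *Snrpb*, the paralog of *Snrpn* used in most tissues, had a difference of -0.23 (95% interval -1.13 to 0.66, adjusted p = 0.592, limma). Its values were 4.53, 5.84 and 5.89 in WT and 5.25, 5.16 and 5.14 in IG27 cells. WT replicate 1 thus lay below all IG27 arrays, and WT replicates 2 and 3 lay above them. The MAGE genes *Maged1*, *Maged2* and *Mageh1* were 2.01-fold, 1.97-fold and 1.61-fold lower in IG27 cells, all called by limma, and *Magel2* is given above.

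All 8 proteins known to act with GRB10 in insulin and nutrient signaling were tested at the RNA level, with 3 higher and 5 lower (100% called, against 70.5%) and a median of -0.35. The receptor genes went apart, with *Igf1r* higher in IG27 cells by 3.21 (adjusted p = 1.08e-07, limma) in contrast to *Insr*, which fell by 0.88 (adjusted p = 0.000173, limma). So did their substrates, with *Irs1* at a difference of 1.62 and *Irs2* at one of -2.38. *Mtor* had 0.25, *Rptor* -0.16 and the ubiquitin ligase gene *Nedd4* -0.81, and all of these were called by limma.

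The 5 tested genes on each side of a member describe its surroundings, over spans that differ widely. The farthest lay 446.3 kb away for *H19*, 665.3 kb for *Mest*, 1238.6 kb for *Dlk1* and 1809.5 kb for *Plagl1*. For *Snrpn*, *Grb10* and *Ndn* it lay 4171.3, 5121.4 and 5631.8 kb away, so those neighbors say little about the genes close by. Around *Plagl1*, 9 of 10 neighbors were higher in IG27 cells and 0 were lower, with a median of 1.05 beside a median of 0.09 over the 681 tested genes of chromosome 10 and 30.6% called higher among all genes. *Stx11*, a syntaxin of secretory cells, was higher by 2.48 (adjusted p = 1.4e-06, limma). *Adat2* was higher by 1.49 (adjusted p = 1.17e-05, limma), and *Aig1* was at least 2.81-fold higher in IG27 cells. The nearest tested genes on either side, *Sf3b5* and *Ltv1*, were higher by 1.15 and 0.95, beside the -0.35 and 3.86 of the 2 *Plagl1* probes.

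Around the other members, at most 5 of 10 neighbors were called in 1 direction. Around *Mest*, 1 neighbor was higher, 5 were lower and 4 were not called, with a median of -0.29 beside -0.21 for chromosome 6. *Copg2*, which overlaps *Mest* at its end, fell by 0.49 (adjusted p = 0.00119, limma). Around *H19*, 2 were higher, 4 lower and 4 not called (median -0.14, chromosome 7 median 0.13), with differences of -1.52 for *Lsp1* and -1.18 for *Tnnt3*. Around *Dlk1*, 3 were higher, 2 lower and 5 not called (median -0.05, chromosome 12 median -0.03). Around *Snrpn*, 4 were higher, 3 lower and 3 not called. Around the members that were not tested, the medians were -0.06 for *Peg3*, 0.00 for *Grb10* and 0.10 for *Ndn*.

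**Figure D4:**
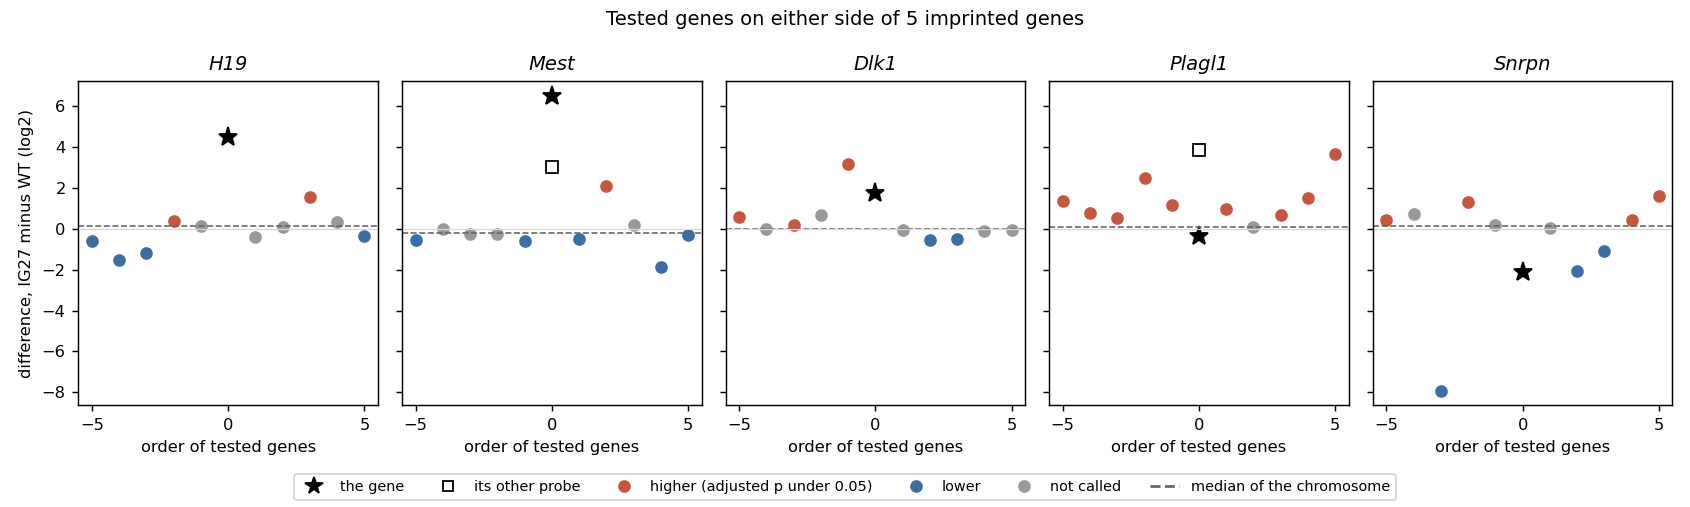
Difference of normalized intensity (IG27 minus WT, log2) of the 5 tested genes on each side of *H19*, *Mest*, *Dlk1*, *Plagl1* and *Snrpn*, in order of gene start. Stars are the members, squares their other probe, colored points are called by limma and dashed lines are chromosome medians. Around *Plagl1* 9 of 10 neighbors are higher in IG27 cells.

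Markers of cell types moved between the groups as well. Of the 12 astrocyte and radial glia markers, 11 were tested, with 4 higher and 5 lower, and their summed level on the linear scale (75th percentile of the array = 1) was 294 to 309 in WT and 218 to 231 in IG27 cells. The radial glia marker *Fabp7* was at least 110.0-fold and the glutamate transporter gene *Slc1a3* at least 20.6-fold higher in IG27 cells, and *S100b* and *Sox9* were higher by 4.93 and 0.71. In contrast, *Aldh1l1*, *Gfap*, *Slc1a2*, *Sox2* and *Nes* were lower, with differences of -1.72, -1.07, -1.03, -0.80 and -0.49. All 9 oligodendrocyte lineage markers were tested, with 4 higher and 3 lower, at a summed level of 109 to 117 in WT and 88.1 to 91.4 in IG27 cells. Of 9 neuron markers, 6 were tested, with 1 higher and 2 lower, at 18.6 to 20.9 in WT and 10.9 to 12 in IG27 cells. The higher one, *Map2*, differed by 8.03 (adjusted p = 6.5e-07, limma) and was well above background on 1 of 3 WT arrays. *Tubb3* fell by 2.63 and *Stmn2* was at least 5.32-fold lower, and *Rbfox3* and *Syt1* were not well above background. The microglia list had 5 of 7 tested, 3 higher and 2 lower, at 14.6 to 15.6 and 13.9 to 14.4, with *Ptprc* and *Cx3cr1* not well above background. The endothelial list had 2 of 5 tested, 1 higher and 1 lower, at 0.161 to 0.178 and 2.58 to 2.65, where *Kdr* was at least 135.0-fold higher, with *Cdh5*, *Cldn5* and *Tek* not well above background. The fibroblast list had 5 of 8 tested, 2 higher and 3 lower, at 173 to 177 and 150 to 158, with *Lum* and *Thy1* not well above background. The part of these shifts in the levels of the imprinted genes was not tested.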

How the data were processed

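RNA of 3 WT and 3 IG27 dishes was labeled with Cy3 and hybridized to Agilent mouse arrays designed on mm9. The authors deposited the processed intensity of each spot on a linear scale, without scaling between arrays, read with Feature Extraction (version 9.1 per the submitters' processing notes, 10.7.3.1 per the file headers). Per the file headers, spots also carry median intensities and flags. For IG27 replicate 2 the scanner data stop after 285 of 62976 spots. Its 255 single-spot probes equaled the deposited value table (relative tolerance 1e-04), which gave this array's values. The table exchanges WT replicates 2 and 3, which were taken as the scanner files name them. The depth of arrays is not a count, and the number of arrays limits the precision.

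Values were log2 of the deposited intensity minus the 75th percentile of each array, without outlier spots. RefSeq accessions were matched to a table of GRCm38.p6: 29334 of 29638 curated mRNA (NM), 2407 of 2477 noncoding RNA (NR), 463 of 1222 model mRNA (XM) and 785 of 2549 model noncoding RNA probes (XR) had a match. Probes with other accessions were left unnamed. Genes with several probes took the brightest. Differences were tested with limma (version 3.58.1, R 4.3.3, lmFit and eBayes, two-sided, Benjamini-Hochberg adjustment over 14894 genes, threshold 0.05). The fit was also run on simulated arrays with independent noise and a far smaller share of changed genes than the 70.5% called here. That run therefore does not check the calls in these data. A bound ("at least") sets the bright group's mean against, per array, the higher of the dim probe's value and the lowest value well above background. It holds for this processing only. IG27 replicate 2 took the higher of the limits of the other IG27 arrays. Of each list the text names called genes with a difference of at least 1 or a bound of at least 2-fold and no overlap (at most 6 each way), all genes of lists of 10 or fewer, and at most 3 neighbors of a member, apart from a few items that are not reported here. *Igf2*, *Mirg*, *Ube3a*, *Dnmt1*, *Uhrf1*, *Ctcf*, *Copg2*, *Sf3b5*, *Ltv1*, the genes named as not well above background and the markers were named beyond that rule after their values were seen. The members and lists were chosen with earlier results of these data known. Alternatives were quantile normalization, normexp, the complete arrays, the value table, outlier spots kept, other filters, other probes, a trend, blocks, chromosome medians and each array left out.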

Additional observations from a re-analysis of the deposited data

How the results depend on the processing

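The number of members called was 5 under 19 of 20 alternatives and 2 where a probe had to be well above background in both groups, which leaves *Dlk1* and *Plagl1*. Leaving out each array in turn kept it at 5. These alternatives are not all distinct. The complete arrays alone and the fit without IG27 replicate 2 are the same fit, and the value table gave the reported differences. The calls of *H19*, *Mest* and *Snrpn* were largely fixed by the filter on dim probes, so the count says little about how firm they are. The sign and call of *H19*, *Dlk1*, *Mest* and *Snrpn* were the same under every alternative that could be fitted (ranges 1.94 to 4.80, 1.03 to 1.94, 2.88 to 6.70 and -2.36 to -0.41). *Plagl1* was reversed by its other probe (3.86) and by the mean of its probes (1.76), and ran from -0.46 to -0.29 otherwise. Replicate numbers did not pair the samples (correlations of same-numbered deviations 0.011, 0.040 and 0.073), and the fit with the replicate block called 5 members and 10309 genes. Normexp, planned on mean signals, which the scanner output used here lacks, was run on median signals of the 5 complete arrays with an offset of 50. Dim probes limit what can be said: 5 members were not well above background apart from 1 spot of *Ndn*, and the bounds of *H19*, *Mest* and *Snrpn* rest on the lowest values above it.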
